A study of Mus musculus with 43 samples.

Results

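The comparison described here sets OT-I T cells recovered from lung under anti-PD-1 against OT-I T cells recovered from lung under IgG in a pooled CRISPR screen of metabolic genes. It rests on 6 lung libraries, 3 per arm, of the 41 libraries of the screen that carry values, and the 6 were chosen by the organ and treatment in their labels. OT-I T cells are mouse CD8+ T cells whose receptor recognizes ovalbumin, here with a Cas9 knock-in (OT-I:Rosa26-Cas9). They were transduced with a lentiviral library, selected for the CD90.1 marker and injected by the tail vein into Rosa26-Cas9 mice that carried orthotopic KPC_OVA tumours, a pancreatic cancer line engineered to express ovalbumin. Both arms share these cells, the Cas9 allele, the library and the tumour. They differ in the antibody, anti-PD-1 or IgG, which was begun on the day of transfer. On day 7 after transfer the CD90.1+ OT-I T cells of the lungs were isolated by sorting, and the sgRNA integrated in their genomic DNA was sequenced. Cells kept from the day of transfer (T0, 3 libraries) show the library before the mice. The labels number the libraries as biological replicates without saying whether each is 1 mouse or a pool, so the p-values measure the spread between these libraries. The data hold sgRNAs and no transcripts, so neither the lung origin nor the cell type could be checked against marker genes.

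PD-1 is an inhibitory receptor that activated T cells display, and antibodies against it block the signal its ligands give. In a pooled knockout screen each T cell carries an sgRNA that disrupts 1 gene, and the abundance of that sgRNA in an organ follows how well such cells arrive, survive and divide there. An sgRNA against a gene that T cells need is lost, and an sgRNA against a gene that restrains them accumulates. A difference between anti-PD-1 and IgG is therefore a difference in the fate of the knockout cells under the antibody, and fewer cells reaching the lung and fewer divisions within it cannot be told apart. Each of the 2078 genes was targeted by 5 sgRNAs, 10390 in all, beside 250 nontargeting sgRNAs that cut no gene. The level of a gene is the mean of log2(signal + 1) over its 5 sgRNAs less the nontargeting median of the same library, so a level of 0 is that of the typical control. A difference is the mean level under anti-PD-1 minus that under IgG, on the same log2 scale, which understates the change of sgRNAs at low signal.

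The arms had the same broad pattern. All 6 lung libraries lay below every T0 library for 671 of 2078 genes, among them all 20 ribosomal protein genes, and above every T0 library for 2 genes, *Pik3cd* and *Pik3r1*. Across genes the mean levels of the arms correlated with a Pearson r of 0.842, a description in which the points share libraries. With limma and Benjamini-Hochberg adjustment over all genes, no gene passed the threshold between the arms: 0 of 2078 genes (0%) were higher under anti-PD-1 against 0 (0%) were lower at an adjusted p of at most 0.05. The smallest adjusted p was 0.152, for *Slc35c1*. At an unadjusted p under 0.05 there were 54 genes (2.6%) above and 22 (1.06%) below, 76 in all (3.66%). The median difference over genes was 0.24, the middle of the distribution ran from -0.47 (25th percentile) to 0.91 (75th percentile), and the extremes were -4.69 for *Slc35c1* and 3.38 for *Ak9*. Precision was low, since the median standard error was 1.02 and the median half-width of the 95% interval was 2.09. The interval lay wholly within -4 and 4 for 1931 genes and within -3 and 3 for 1248, so with 3 libraries per arm a difference within about 2.09 of 0 was not detectable even before adjustment for a gene of median precision.

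**Figure D1:**
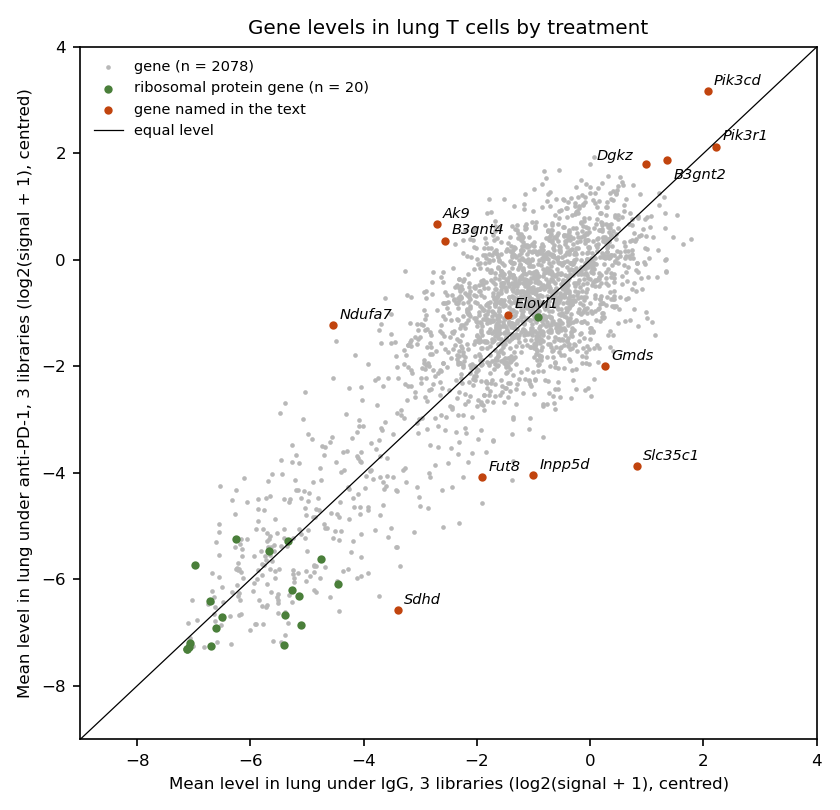
Mean level of each gene in lung under IgG (x axis) and anti-PD-1 (y axis), each over 3 libraries, as log2(signal + 1) centred on the nontargeting sgRNAs; grey points are the 2078 genes, green points the 20 ribosomal protein genes, orange points genes named in the text, and the line marks equal levels. The ribosomal protein genes lie mostly at the lower left in both arms, *Pik3cd* and *Pik3r1* at the upper right, and *Slc35c1* stands farthest below the line, at 0.83 under IgG and -3.87 under anti-PD-1.

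The libraries differed in a way that touches every difference. The share of sgRNAs at the lowest value, meaning the smallest value of an sgRNA where at least 2 libraries of a replicate number share it, was 42.6%, 28.0% and 11.3% in IgG replicates 1, 2 and 3. It was 17.8%, 30.2% and 10.5% in anti-PD-1 replicates 1, 2 and 3. IgG replicate 1 thus stood apart, and the arms overlapped (two-sided exact permutation p = 0.6, where 3 libraries against 3 allow no p below 0.1). A lowest value was shared between organs for 94.0% and 93.9% of sgRNAs in numbers 1 and 2 but 64.5% in number 3. Shares in number 3 may therefore be too low. The share of sgRNAs with a signal below 2 was 39.3%, 28.0% and 14.6% in the IgG replicates. In the anti-PD-1 replicates it was 17.2%, 30.5% and 19.0%. The SD of the nontargeting sgRNAs within a library, on the log2 scale, averaged 2.91 ± 0.21 (SD, n = 3) under anti-PD-1 against 3.20 ± 0.54 (SD, n = 3) under IgG (exact permutation p = 0.5). The 100 highest sgRNAs held 12.9% ± 3.0 (SD, n = 3) of the signal under anti-PD-1 against 13.3% ± 2.7 (SD, n = 3) under IgG (exact permutation p = 0.9). Summed signal ran from 1788300 to 3577399 over the 6 libraries; since the values are normalized, the read depth is unknown. Without IgG replicate 1 the median difference over genes was -0.08, and the split at an unadjusted p under 0.05 turned from 54 above and 22 below to 29 above and 53 below. Centring on the mean of the nontargeting sgRNAs in place of their median gave a median difference of -0.12, with 42 above and 89 below. Without anti-PD-1 replicate 1 the split was 26 above and 40 below. In all 2078 genes, 1223 differences (58.9%) were above 0.

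The same held when libraries were compared within a replicate number. The median difference over genes was 1.20 in number 1, -0.33 in number 2 and -0.19 in number 3. Across genes the differences of number 1 and number 2 correlated with a Pearson r of 0.018, those of 1 and 3 with 0.010 and those of 2 and 3 with 0.038, as descriptions over 2078 genes that share libraries. A gene that differed in one replicate number thus had, in general, no like difference in another. The difference was above 0 in all 3 numbers for 305 genes (14.7%) and below 0 in all 3 for 192 (9.24%). Every anti-PD-1 library lay above every IgG library for 135 genes (6.5%) and below for 63 (3.03%). All 5 sgRNAs were higher under anti-PD-1 for 92 genes (4.43%) and lower for 88 (4.23%). An sgRNA at its lowest value in all 6 libraries receives a difference of -0.19 from the centring alone, and 36 of the 88 genes, but none of the 92, had such an sgRNA. With no such sgRNA there were 52 genes lower and 92 higher, of 1890 genes. Per sgRNA, the differences of the nontargeting controls had an SD of 2.28 (n = 250) and those of the targeting sgRNAs 2.24 (n = 10390), so the sgRNAs against genes spread no more widely than the controls.

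**Figure D2:**
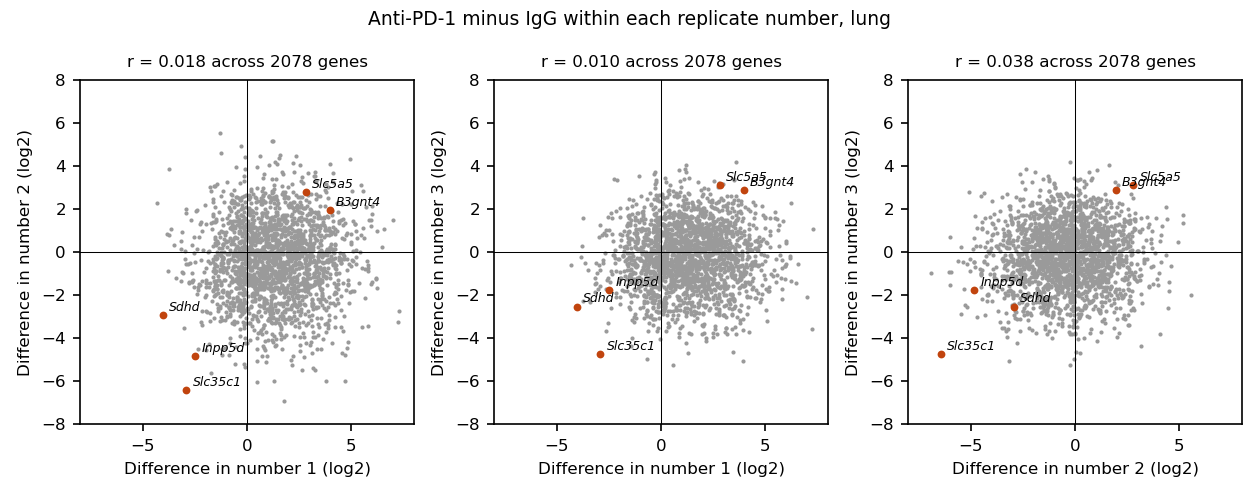
Difference between anti-PD-1 and IgG in lung within each replicate number, for 2078 genes, with 1 pair of numbers per panel and both axes in log2; orange points are 5 named genes. The clouds show no slope (r of 0.018, 0.010 and 0.038), and *Slc35c1*, *Sdhd* and *Inpp5d* lie in the lower left of all 3 panels.

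*Slc35c1*, which encodes the transporter that carries GDP-fucose into the Golgi, had the largest difference of any gene in either direction. Its levels were -2.19, -5.40 and -4.01 in anti-PD-1 replicates 1, 2 and 3 and 0.72, 1.04 and 0.72 in the IgG replicates, against a T0 mean of -0.41. The arms did not overlap, and the IgG libraries lay close together, above T0. The difference was -4.69 (standard error 1.02, 95% interval -6.78 to -2.61), with an unadjusted p of 7.3e-05 and an adjusted p of 0.152 from limma with Benjamini-Hochberg adjustment, so it did not pass the threshold. It was -2.92, -6.44 and -4.73 within numbers 1, 2 and 3, and all 5 sgRNAs were lower under anti-PD-1. The signal of 1 of these sgRNAs was 121, 119 and 118 in the IgG libraries and 43.2, 2.33 and 0 in the anti-PD-1 libraries. The sgRNAs were not all alike. Another was at 396, 510 and 190 under IgG and 62.0, 194 and 27.3 under anti-PD-1, where replicate 2 lay above IgG replicate 3. Over 17 alternative settings the difference stayed between -5.53 and -3.34, while limma's adjusted p ran from 0.0223 to 0.998. It passed the threshold with a pseudocount of 10 (adjusted p = 0.0452), with centring on the nontargeting mean (adjusted p = 0.0288) and without anti-PD-1 replicate 1 (adjusted p = 0.0223). Without IgG replicate 2 the adjusted p was 0.998, at a difference of -4.59.

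*Gmds* encodes an enzyme that acts on GDP-mannose in the route to GDP-fucose. *Fut8* encodes the enzyme that puts fucose on the core of N-glycans. Surface proteins of T cells, PD-1 among them, are known to carry this modification. These neighbours of *Slc35c1* were singled out after its value was seen, and their differences are descriptions. *Gmds* was at -1.57, -4.50 and 0.10 under anti-PD-1 against -0.34, 0.31 and 0.81 under IgG, a difference of -2.25 (standard error 1.09). *Fut8* was at -3.65, -5.16 and -3.41 under anti-PD-1 against -3.44, -2.52 and 0.23 under IgG, a difference of -2.17 (standard error 1.06). For *Gmds* the arms overlapped, and for *Fut8* anti-PD-1 replicate 3 lay just above IgG replicate 1. Each difference was smaller without 1 library, -0.99 for *Gmds* without anti-PD-1 replicate 2 and -1.10 for *Fut8* without IgG replicate 3. All 5 sgRNAs of both genes were lower under anti-PD-1, and the adjusted p was 0.976 for each (limma). The 11 genes of fucose supply and transfer, a list also drawn up after these values were seen, had a median difference of -0.03. Of these, 5 were above 0, 0 were called and 3 had an unadjusted p under 0.05. The 3 were *Slc35c1*, *Gmds* and *Fut8*, the last at a limma p of 0.049996. The background was 3.66% of all genes and 1.06% for lower genes. A list drawn up after its values were seen cannot be tested against that background. *Fuk*, the kinase of the salvage route to GDP-fucose, had the highest difference of the 11, 1.62 (standard error 0.97).

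**Figure D3:**
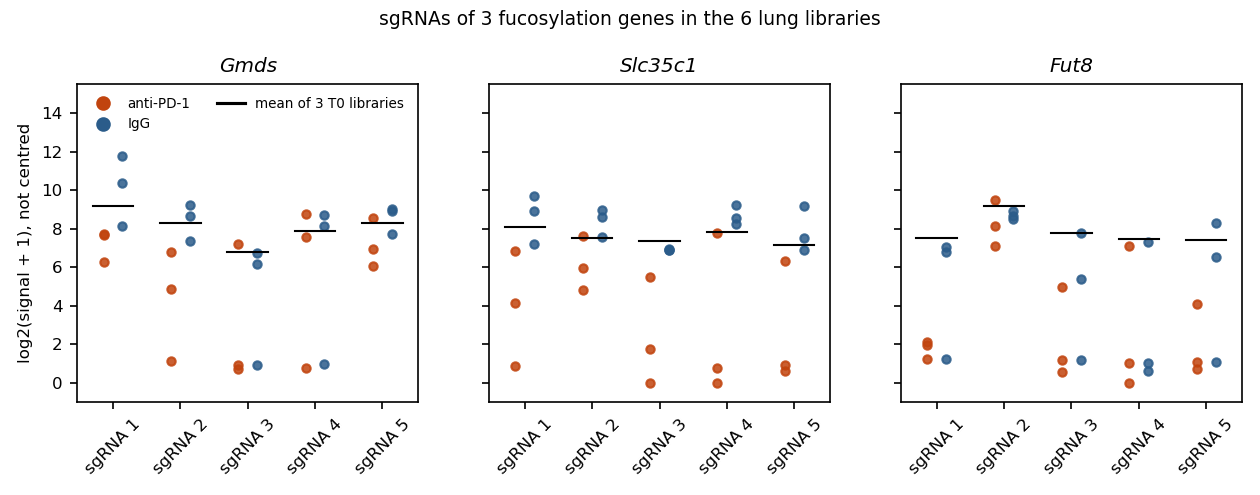
Signal of each of the 5 sgRNAs of *Gmds*, *Slc35c1* and *Fut8* in the 6 lung libraries, as log2(signal + 1) without centring (y axis); orange points are anti-PD-1 libraries, blue points IgG libraries, and the black line is the mean of the 3 T0 libraries. All 15 sgRNAs have a lower mean under anti-PD-1; for *Slc35c1* no IgG library is near 0, whereas several IgG libraries are near 0 for *Fut8*.

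In the other organs the levels of these 3 genes were lower under anti-PD-1 except where stated. The difference of *Slc35c1* was -2.09 in primary tumour and -1.81 in spleen (3 libraries per arm each), -2.24 in peritoneal metastases (3 against 2 libraries) and -3.40 in liver (1 against 2). It was -2.18 in draining lymph nodes, where IgG libraries had an SD of 3.71, and 0.59 in nondraining lymph nodes. For *Gmds* the differences were -1.02 in primary tumour, -1.90 in spleen and -2.02 in peritoneal metastases, and for *Fut8* they were -1.24, -1.74 and -2.35. In liver, draining and nondraining lymph nodes they were -0.67, -0.69 and -0.68 for *Gmds* and -0.59, -2.45 and 0.40 for *Fut8*. In primary tumour and peritoneal metastases every anti-PD-1 library lay below every IgG library for all 3 genes, as it did for 4.76% of all genes in primary tumour and 10.3% in peritoneal metastases. These organs share replicate numbers with lung, and differences within a number were correlated between organs, as given with the comparison of organs. Tested directly, the lung difference of *Slc35c1* minus that in primary tumour was -2.60 (standard error 1.03, limma adjusted p = 0.998), and minus that in spleen it was -2.89 (standard error 1.33, limma adjusted p = 0.996).

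After *Slc35c1*, the negative differences that held in all 3 replicate numbers and in at least 4 sgRNAs reached -3.18. None of the 12 largest passed the threshold, and apart from *Slc35c1* each had an adjusted p of 0.976 (limma). *Sdhd*, a membrane anchor of succinate dehydrogenase, was at -6.66, -7.20 and -5.86 under anti-PD-1 against -2.61, -4.26 and -3.33 under IgG, from 0.04 at T0. All 6 libraries lay below T0, and the arms did not overlap (difference -3.18, standard error 0.99). *Uqcrb*, a subunit of complex III, was at -5.84, -6.47 and -6.64 against -4.54, -3.27 and -3.40, again without overlap (difference -2.58, standard error 0.98). Many values of both genes were at the lowest value. The 5 sgRNAs of *Sdhd* were there in 1, 3, 3, 2 and 3 anti-PD-1 libraries and 1, 1, 3, 0 and 1 IgG libraries. For *Uqcrb* these were 2, 2, 1, 3 and 3 against 0, 2, 0, 2 and 3. With a pseudocount of 10 the differences were -1.91 for *Sdhd* and -1.56 for *Uqcrb*. *Slc25a1*, the mitochondrial citrate carrier, was at 0.28, -2.45 and -2.05 against 0.90, 0.88 and 1.64 (difference -2.55, standard error 1.01). For *Slc25a1* the IgG libraries lay above the T0 mean of 0.20 and only anti-PD-1 replicates 2 and 3 lay below it.

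*Ndufb9*, a subunit of complex I, had a difference of -2.62, *Mecr*, an enzyme of mitochondrial fatty acid synthesis, -2.65, and *Hccs*, which attaches heme to cytochrome c, -2.43. *Dhodh*, the pyrimidine synthesis enzyme of the inner mitochondrial membrane, had a difference of -2.42. For these 4 genes the arms overlapped. *Ppcdc*, an enzyme of coenzyme A synthesis, had a difference of -2.38, and *Cyb5r4*, a cytochrome b5 reductase, -2.58, with overlap in both. For *Ppcdc* the difference in number 1 was only -0.10 and for *Dhodh* -0.17, with IgG replicate 1 at -6.51 and -3.53, close to the anti-PD-1 libraries. The difference of *Ppcdc* was -1.05 without IgG replicate 2 and -3.96 at the other end of the fits with 1 library left out. Without anti-PD-1 replicate 2 that of *Ndufb9* was -1.55 and that of *Cyb5r4* also -1.55.

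Phosphoinositide enzymes supplied the remaining pair. *Inpp5d* encodes SHIP-1, the phosphatase that removes the 5-phosphate from the lipid PI3K makes. It was at -3.35, -5.53 and -3.22 under anti-PD-1 against -0.86, -0.70 and -1.46 under IgG, against 0.13 at T0, with no overlap and a difference of -3.03 (standard error 1.0). Its sgRNAs disagreed: 4 were lower under anti-PD-1 and 1 was higher, with a signal of 687, 2.27 and 2591 under anti-PD-1 against 1.10, 213 and 119 under IgG. With the median of the sgRNAs in place of their mean the difference was -6.78 and passed the threshold (limma adjusted p = 0.0250). *Pi4ka*, the kinase that makes phosphatidylinositol 4-phosphate at the plasma membrane, was at -5.13, -4.46 and -2.80 against -2.12, -0.95 and -1.09, with no overlap and a difference of -2.75 (standard error 1.0). The 34 genes of phosphoinositide phosphatases and PI4 kinases, a list drawn up after these values were seen, had a median difference of 0.43. At an unadjusted p under 0.05 there were 3, all below 0, where 1.06% of all genes were. This count is a description, because the list followed the values.

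**Figure D4:**
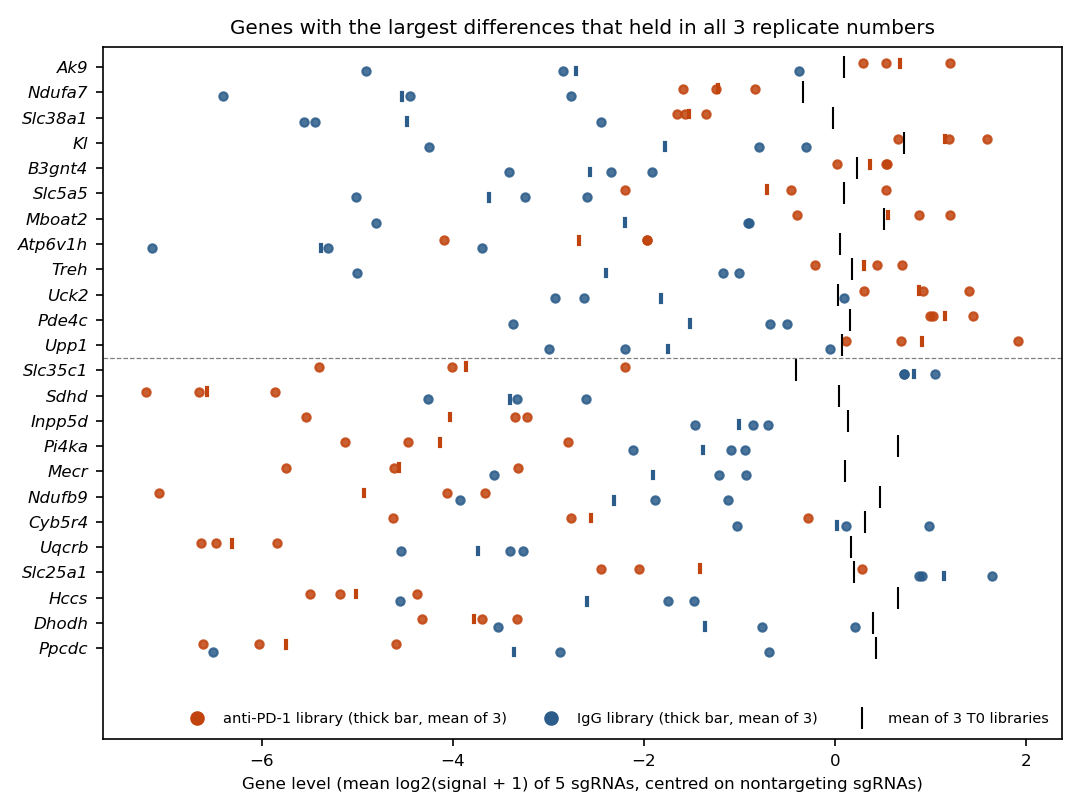
Level of the 24 genes with the largest differences that held in all 3 replicate numbers and at least 4 sgRNAs (x axis, log2(signal + 1) centred on the nontargeting sgRNAs); orange points are anti-PD-1 libraries and blue points IgG libraries, thick bars are means of 3 and black ticks the T0 mean. Above the dashed line, most genes have 1 or 2 low IgG libraries and anti-PD-1 libraries near T0; below it, the anti-PD-1 libraries lie below the T0 mean, as for *Slc35c1* and *Inpp5d*, except *Slc25a1* in anti-PD-1 replicate 1.

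The rule of all 3 replicate numbers and at least 4 sgRNAs was met by 192 genes higher and 130 genes lower under anti-PD-1. By this rule the 12 largest positive differences had another form: the anti-PD-1 libraries mostly sat near T0 and 1 or more IgG libraries lay far below. Each had an adjusted p of 0.976 (limma). *Ak9*, an adenylate kinase, was at 0.53, 0.29 and 1.20 under anti-PD-1 against -4.90, -2.84 and -0.38 under IgG (difference 3.38, standard error 1.08). *Kl*, which encodes the hormone co-receptor Klotho, was at 1.59, 1.19 and 0.65 against -4.25, -0.31 and -0.80 (difference 2.93, standard error 1.07). In both genes IgG replicate 1, the library with the most sgRNAs at the lowest value, was the lowest of the 6, and without it the difference of *Ak9* was 2.29 and that of *Kl* was 1.70. The 12 differences kept their sign in each of the 17 settings. This is no separate support, because the genes were chosen for that sign in all 3 replicate numbers. Where the arms did not overlap, no fit with 1 library left out could turn the sign.

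For *B3gnt4* and *Slc5a5* the differences were 2.49 and 2.21 without IgG replicate 1. *B3gnt4*, a glycosyltransferase that adds N-acetylglucosamine in poly-LacNAc chains, was at 0.53, 0.02 and 0.54 against -3.42, -1.91 and -2.35 (difference 2.92, standard error 0.98). *Slc5a5*, the sodium-iodide symporter, was at -2.20, -0.46 and 0.53 against -5.01, -3.25 and -2.59 (difference 2.91, standard error 1.04). For both genes the arms did not overlap, and for *Slc5a5* the difference was 2.81, 2.78 and 3.13 in numbers 1, 2 and 3. *Ndufa7*, a subunit of complex I, was at -0.84, -1.59 and -1.24 against -6.40, -4.44 and -2.76 (difference 3.31, standard error 1.04), the opposite sign to *Ndufb9* of the same complex. *Slc38a1*, a glutamine transporter, was at -1.57, -1.35 and -1.66 against -5.56, -5.44 and -2.45 (difference 2.96, standard error 1.03).

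The nucleoside salvage enzymes *Uck2*, a uridine-cytidine kinase, and *Upp1*, a uridine phosphorylase, had differences of 2.70 and 2.65. *Pde4c*, a cyclic AMP phosphodiesterase, had 2.67, *Mboat2*, a lysophospholipid acyltransferase, 2.76, and *Treh*, which cleaves trehalose, 2.70. Without IgG replicate 1 the difference of *Mboat2* was 1.46 and that of *Treh* 1.40, and without IgG replicate 2 that of *Pde4c* was 1.74. *Atp6v1h*, a subunit of the vacuolar proton pump, had a difference of 2.70 and was the only one of the 12 whose arms overlapped, at -4.10, -1.97 and -1.97 against -5.30, -7.14 and -3.69.

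For the genes the study names for this screen the libraries of the arms overlapped, and no difference passed the threshold. *Pik3cd*, the delta catalytic subunit of PI3K, was at 2.69, 3.15 and 3.68 under anti-PD-1 against 0.75, 2.85 and 2.62 under IgG, against 0.10 at T0. All 6 libraries lay above the T0 mean, IgG replicate 1 the least, and the arms overlapped (difference 1.10, standard error 1.0, 95% interval -0.93 to 3.14, limma adjusted p = 0.976). All 5 of its sgRNAs were higher under anti-PD-1, 1 of them mainly through IgG replicate 1, where its signal was 1.92 against 656 and 178 in the other IgG libraries. *Pik3r1*, which encodes the regulatory partner p85 alpha, was at 1.89, 1.93 and 2.57 against 2.40, 1.68 and 2.61 (difference -0.10, standard error 0.97, 95% interval -2.08 to 1.88). Among the 100 highest sgRNAs of each library, 1 sgRNA of *Pik3cd* stood in all 6 libraries, whereas 486 sgRNAs stood in 1 library alone. That *Pik3cd* sgRNA had a signal of 1479, 1186 and 353 at T0.

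*Dgkz*, a diacylglycerol kinase that ends diacylglycerol signals after T cell receptor engagement, was at 1.89, 1.14 and 2.35 against 0.08, 1.87 and 1.02 (difference 0.80, standard error 0.99). *B3gnt2*, which starts and extends poly-LacNAc chains, was at 0.68, 1.87 and 3.09 against 1.60, 0.52 and 1.96 (difference 0.52, standard error 1.01). All 6 libraries lay above the T0 mean of -0.15 for *Dgkz*, and 5 of 6 lay above that of 0.58 for *B3gnt2*. *Elovl1*, the elongase of saturated very long-chain fatty acids, was at -0.21, -2.07 and -0.81 against -1.84, -0.83 and -1.69 (difference 0.42, standard error 0.99, 95% interval -1.60 to 2.44), with 2 of 5 sgRNAs higher. *Rpl9*, a ribosomal protein gene, and *Polr1d*, a subunit shared by RNA polymerases I and III, lay far below T0 in all 6 libraries, with differences of 0.31 and 0.36 and overlapping libraries.

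Gene lists were described by counts and medians beside the median of 0.24 over all genes. No member of any of the 34 lists passed the threshold, where the background was 0% in each direction. The 7 fatty acid elongases had the highest median, 1.17, and all 7 differences were above 0, against 58.9% of all genes. They ran from 0.42 for *Elovl1* to 2.50 for *Elovl5*, which acts on polyunsaturated fatty acids, with *Elovl2* at 1.96, *Elovl3* at 1.61 and *Elovl6* at 1.17. *Elovl5* was at -0.49, -3.17 and 0.07 under anti-PD-1 against -4.08, -2.92 and -4.10 under IgG, so anti-PD-1 replicate 2 lay within the IgG libraries. By replicate number the median of the elongases was 1.81, -0.25 and 1.40, and that of all genes 1.20, -0.33 and -0.19.

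**Figure D5:**
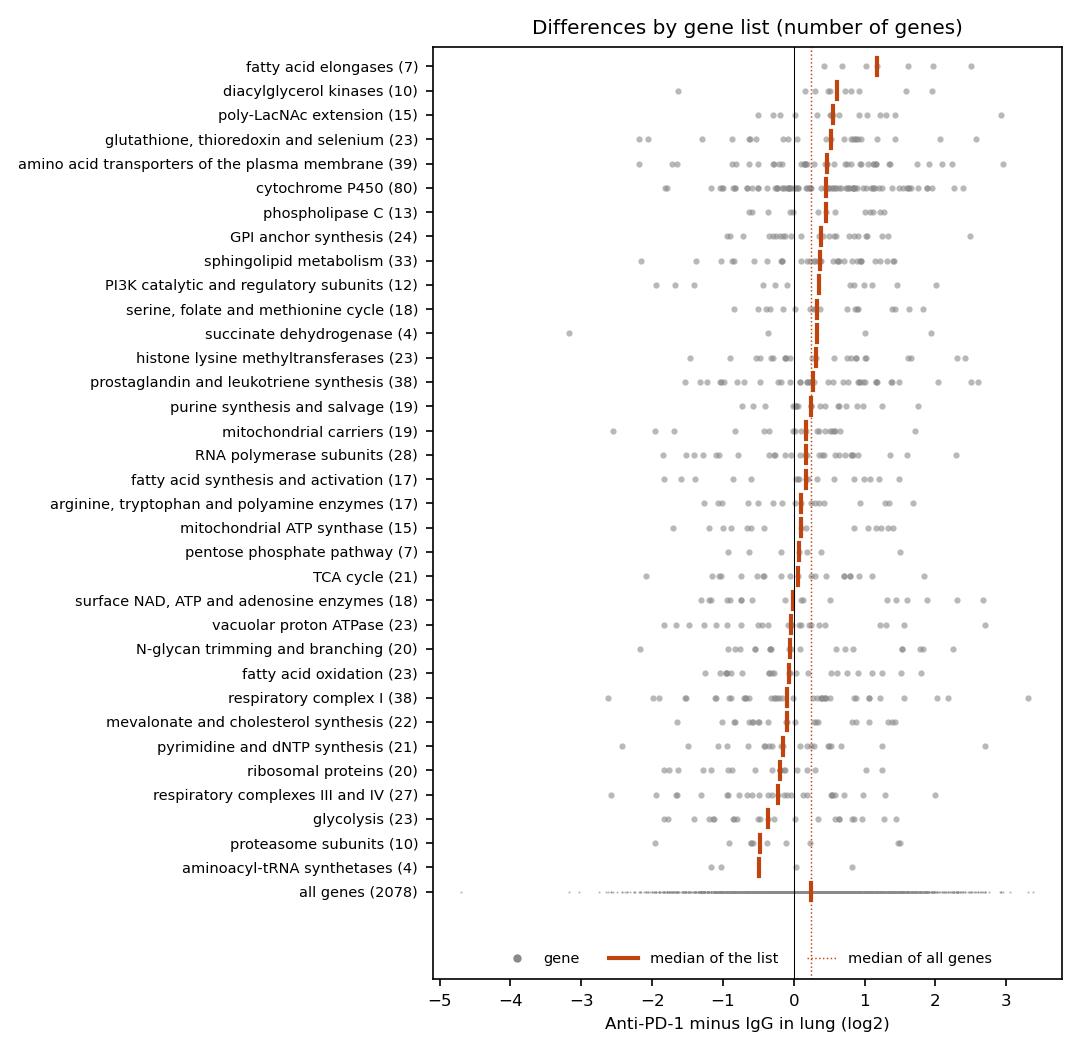
Difference between anti-PD-1 and IgG in lung (x axis, log2) for the genes of each list, with the number of genes in brackets; grey points are genes, orange bars list medians, and the dotted line is the median of all 2078 genes, 0.24. List medians run from -0.49 for aminoacyl-tRNA synthetases to 1.17 for fatty acid elongases, and the genes of nearly every list lie on both sides of 0.

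The 12 catalytic and regulatory subunits of PI3K had 6 differences above 0 and a median of 0.35 (1.69, -1.03 and 0.23 by number), from -1.95 for *Pik3r5*, a regulatory subunit of PI3K gamma, to 2.01 for *Pik3cb*, the beta catalytic subunit. *Pik3cg*, the gamma catalytic subunit, was at 0.995. Diacylglycerol kinases had 9 of 10 above 0 and a median of 0.62, from -1.63 for *Dgkd* to 1.96 for *Dgkg*. By replicate number this median was 1.82, -0.30 and -0.22, against 1.20, -0.33 and -0.19 over all genes. Poly-LacNAc extension genes had 12 of 15 above 0 and a median of 0.56 (1.19, 0.30 and 0.39 by number), with *B3gnt4* the highest. N-glycan trimming and branching genes divided, with 9 of 20 above 0 and a median of -0.05 (1.60, -1.11 and -0.20 by number): *Fut8* was the lowest, and *Mgat2*, which starts a branch of the N-glycan, was the highest at 2.25.

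Respiratory genes also divided within complexes. Of the 4 succinate dehydrogenase genes, *Sdhd* was at -3.18, the other membrane anchor *Sdhc* at -0.36, the iron-sulfur subunit *Sdhb* at 1.94 and the flavoprotein subunit *Sdha* at 1.01. Complex I had 18 of 38 differences above 0 and a median of -0.09. Complexes III and IV had 10 of 27 and a median of -0.23. Every anti-PD-1 library lay below every IgG library for 4 of these 27 genes, against 3.03% of all genes. The same count was 2 of 38 for complex I and 1 of 4 for succinate dehydrogenase. It was 2 of 23 for glycolysis and 3 of 23 for the vacuolar proton ATPase. The mitochondrial ATP synthase had 8 of 15 and a median of 0.10, and the TCA cycle 11 of 21 and a median of 0.06. Glycolysis had 10 of 23 and a median of -0.37.

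Genes that all dividing cells use lay far below T0 in both arms. Ribosomal protein genes had a median level of -6.54 under anti-PD-1 against -5.96 under IgG, from 0.21 at T0, and a median difference of -0.19 with 5 of 20 above 0. No direction is read from this median, since 52 of their 100 sgRNAs were at the lowest value in all 6 libraries, where the centring alone gives -0.19. *Rpl36* had the lowest difference, -1.83, and *Rpl11* the highest, 1.24. RNA polymerase subunits had a median level of -5.36 under anti-PD-1 against -5.55 under IgG, and proteasome subunits -5.78 and -5.47. Amino acid transporters of the plasma membrane had 28 of 39 differences above 0 and a median of 0.46, from -2.19 for *Slc7a11*, the cystine transporter, to 2.96 for *Slc38a1*.

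Some single sgRNAs were at their lowest value throughout 1 arm and in no library of the other. Of 10390 targeting sgRNAs, 70 (0.674%) were at their lowest value in all 3 IgG libraries and in no anti-PD-1 library, and 25 (0.241%) showed the reverse. Among the 250 nontargeting sgRNAs, 3 (1.2%) and 0 did so, so the first pattern was no more frequent among targeting sgRNAs than among controls. No gene had 2 or more such sgRNAs in either direction. These counts are not read as a loss of knockout cells. Whether they exceed what the shares of lowest values in each library would give was not tested. All 6 libraries were at the lowest value for 336 targeting sgRNAs (3.23%) and 4 nontargeting sgRNAs (1.6%). At the upper end, 1 sgRNA of *B4galt4*, a galactosyltransferase of poly-LacNAc chains, stood among the 100 highest in all 3 anti-PD-1 libraries and in no IgG library, with a signal of 2772, 4113 and 2296 against 660, 1483 and 461. An sgRNA of *Slc7a10*, a transporter of small neutral amino acids, did the same, at 2612, 3766 and 2241 against 1035, 745 and 212. Ranks by signal are not set against T0. There the *B4galt4* sgRNA was at 1505, 1231 and 730 and the *Slc7a10* sgRNA at 1293, 927 and 493. No other sgRNA of these genes stood among the 100 highest in this way. Per sgRNA, the differences of *B4galt4* were 1.76, 0.69, 1.33, 0.85 and -0.03. Those of *Slc7a10* were -1.43, 2.17, -0.07, 0.36 and 4.64. The *Slc7a10* sgRNA with 4.64 was at 605, 680 and 219 under anti-PD-1 against 1.17, 104 and 16.3 under IgG. The gene difference of *B4galt4* was 0.92 (standard error 1.0) and that of *Slc7a10* 1.13.

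Whether a difference was particular to lung was tested against primary tumour and spleen. These fits took the 12 libraries as independent and left out the replicate number. Fits with replicate number as a block are given with the dependence on processing. The lung difference minus that in primary tumour passed the threshold for 0 of 2078 genes (0%), with 57 (2.74%) at an unadjusted p under 0.05 and a smallest adjusted p of 0.998 (limma). Minus that in spleen it passed for 0 genes (0%), with 53 (2.55%) at an unadjusted p under 0.05 and a smallest adjusted p of 0.996 (limma). *Inpp5d* differed by -3.34 from its difference in primary tumour (standard error 1.02) and by -1.73 from that in spleen (standard error 1.38). *Ak9*, whose difference was -0.06 in primary tumour and 0.20 in spleen, differed by 3.44 (standard error 1.23) and 3.18 (standard error 1.36). *B3gnt4* was at 0.56 in primary tumour and 0.90 in spleen, *Sdhd* at -1.11 and -2.27.

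Differences in lung and in another organ were correlated within a replicate number, more evenly for primary tumour than for spleen. Across genes, the lung difference of a number correlated with the primary tumour difference of the same number at an r of 0.222 to 0.293, and with that of another number at 0.011 to 0.059. For spleen the values were 0.065 to 0.316 for the same number and -0.020 to 0.047 for another. The 250 nontargeting sgRNAs, which disrupt no gene, showed the same in primary tumour, 0.172 to 0.292 for the same number and -0.049 to 0.054 for another, while in spleen the same-number values ran from -0.085 to 0.265. These correlations are descriptions over genes or sgRNAs, with no test. A like difference in lung and in another organ was therefore not taken as a second, separate observation. How far the organs depend on each other was not tested. For spleen in number 3 the same-number values were 0.065 over genes and -0.085 over nontargeting sgRNAs.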

How the data were processed

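The authors sequenced the integrated sgRNA, counted reads with MAGeCK, scaled them by the 250 nontargeting controls and adjusted for batches between organs with ComBat; this signal per sgRNA and library is what they deposited. Deposited values other than 0 are fractional, which excludes a count test, leaves the read depth unknown and allows no counting interval. Settings of ComBat are not given in the sources used here, and since in replicate numbers 1 and 2 the lowest value of most sgRNAs is shared by libraries of different organs, the batches it was run on are uncertain, which bears on counts of lowest values and on differences within a number. From the signal, log2(signal + 1) was averaged over 5 sgRNAs per gene and centred on the nontargeting median of each library. limma 3.58.1 in R 4.3.3 fitted the 6 lung libraries (prior degrees of freedom 25.6, prior variance 1.60), with no filter and Benjamini-Hochberg adjustment over 2078 genes at 0.05; differences between organs used 12 libraries. The fit was tested on simulated data in which low sgRNA means were raised, so that test does not cover sgRNAs that are low in all libraries. Lowest values were matched within a relative tolerance of 1e-09. Genes named are the 12 largest differences per direction among those that held in 3 of 3 replicate numbers and at least 4 sgRNAs, genes the study names, and list members given as examples. Members and lists were chosen with earlier results of these data known. Alternatives were pseudocount, sgRNA median, centring, low sgRNAs, replicate block, library weights, all 41 libraries, a trended prior and each library left out. Figures used matplotlib 3.10.9.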

Additional observations from a re-analysis of the deposited data

How the results depend on the processing

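With 3 libraries per arm and an unknown read depth, the count of genes past the threshold was 0 in each direction in the fit as designed and stayed at 0 without further centring, with the median of all sgRNAs for centring, with shared lowest values set to 0, with library weights, with all 41 libraries in one fit and with a trended prior. It was 1 lower gene with a pseudocount of 10 (*Slc35c1*, -3.34), 1 with the nontargeting mean for centring (*Slc35c1*, -5.06) and 1 with the median of the sgRNAs (*Inpp5d*, -6.78). Over the fits that left out 1 library it ranged from 0 to 1, the 1 being *Slc35c1* at -5.53 without anti-PD-1 replicate 1. With the lowest 10% of sgRNAs left out there were 1 higher gene (*Polr2b*) and 2 lower genes (*Polr2e* and *Rpl30*), each with 1 sgRNA remaining. Between lung and primary tumour, that filter gave 1 higher gene (*Polr2b*) and the sgRNA median 1 lower gene (*Inpp5d*); between lung and spleen the sgRNA median gave 1 higher gene (*Ndufa5*).

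Lung libraries of the same replicate number had deviations from their group means that correlated at -0.106, -0.014 and -0.070. These correlations cannot show whether the numbers pair the samples, because the values were batch-corrected and the batches are uncertain. With the replicate block the count stayed at 0 in each direction, with 52 genes above and 19 below at an unadjusted p under 0.05, and *Slc35c1* had an adjusted p of 0.140 (limma). In the comparisons between organs the block also gave 0, as did replicate number and treatment as a block, an alternative chosen after seeing the data.

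At an unadjusted p under 0.05 the split of 54 above and 22 below became 111 and 19 without further centring, 94 and 36 with library weights, 57 and 42 with the lowest 10% of sgRNAs left out, 134 and 13 without IgG replicate 3, 100 and 10 without anti-PD-1 replicate 2, 26 and 40 without anti-PD-1 replicate 1, and 33 and 26 without anti-PD-1 replicate 3. Of 52 genes followed over 17 settings, 46 kept their sign in each. For the genes chosen because their sign held in all 3 replicate numbers, the choice itself made this likely. *Pik3r1* turned to 1.08 with the sgRNA median, 0.0936 without further centring and 0.0486 with library weights, and ran from -0.37 to 0.10 with 1 library left out. *Rpl9* was at -0.16 with the sgRNA median, -0.0610 with the nontargeting mean and -0.14 to 0.85 with 1 library left out, and *Polr1d* at -0.14, -0.00604 and -0.0408 to 0.70. *Slc7a10* was at -0.24 with the sgRNA median. With 1 library left out, *B3gnt2* ran from -0.0866 to 1.12 and *Sdhc* from -0.78 to 0.25. The cause of these changes was not tested.

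The share of sgRNAs at the lowest value, anti-PD-1 minus IgG, was -7.80 percentage points, -0.79 as the median within replicate numbers and -5.09 with values below 2 in its place, and ran from -15.8 to -0.16 with each library left out in turn, which was added once the data had been seen. The share of signal in the 100 highest sgRNAs ran from -2.06 to 0.92 percentage points in the same way, around -0.45.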
